A study of Chlorocebus aethiops with 12 samples.

Results

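The 34 genes described here are immediate early and AP-1 genes, chosen as a fixed list of RefSeq accessions. They were followed in COS-1, an established African green monkey kidney line of fibroblast-like shape. The list holds the FOS, JUN and EGR families, the IER genes, the NR4A receptors, SRF, MYC, and further genes of the same early response. Of the 34 accessions, 31 were carried by spots of the array and 30 were bright enough to be tested, out of 24586 accessions tested in all. JUND (NM_005354), ATF3 (NM_001674) and NR4A3 (NM_006981) had no spot under their listed accession, and NR4A2 (NM_006186) was well above background on 3 of the 12 arrays and was not tested. Of the 30, 29 were well above background on all 12 arrays and EGR3 on 9.

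Immediate early genes are transcribed within minutes of a growth factor, serum or stress signal, without new protein synthesis, and many of their transcripts are short-lived. FOS and JUN family proteins pair through a leucine zipper to form AP-1, which binds DNA and drives later waves of transcription. MAP kinases act on these genes through factors such as SRF and its partners. The glucocorticoid receptor (GR) is a ligand-activated transcription factor that raises some genes by binding DNA and lowers others, and its antagonism of AP-1 is a classical case of the latter.

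Cy3-labelled cRNA from each sample was read on a one-colour array of a human design, so monkey transcripts were measured with probes for human ones. All cells had been transiently transfected with the GR mutant S211A, in which alanine replaces a serine that is phosphorylated, had been moved to charcoal-stripped serum, and were treated 48 h after transfection. The 4 groups were S211A with vehicle, S211A with 100 nM dexamethasone (Dex), S211A+MDFIC with vehicle and S211A+MDFIC with 100 nM Dex, each for 6 h. Dex is a synthetic glucocorticoid, MDFIC is a protein that binds GR, and the series asks whether MDFIC alters transcription by GR when this site cannot be phosphorylated. Each group held 3 biological replicates per the labels. The 12 samples include no cells with the unmutated receptor and none without transfected receptor. Each sample was a bulk extract, so a change in every cell and a change in the share of cells carrying the plasmids cannot be told apart.

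A level below is the log2 signal of an accession minus the 75th percentile of its array, so 0 marks that percentile and levels of different genes are not comparable. A gene is said to have risen, fallen or changed where the limma p-value, adjusted over all 24586 accessions, was under 0.05. The 12 arrays lay on 3 slides of 4. Every S211A vehicle sample was on slide 1, together with the first S211A Dex sample. The other 2 S211A Dex samples shared slide 2 with S211A+MDFIC vehicle replicates 1 and 2, and the remaining 4 samples made up slide 3. On slide 1 the arrays had 67.8% to 71.7% of probes well above background, and on slides 2 and 3 they had 76.2% to 80.6%. The median spread between arrays of a group (SD) was 0.10 over the 30 members and 0.12 over all accessions tested.

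In S211A cells 10 of the 30 tested members fell with Dex and 1 rose. Among all accessions tested 2.2% fell, 4.31% rose and 6.5% changed in either direction, against 33.3%, 3.33% and 36.7% of the 30 members. IER3, JUN, EGR1, IER2, FOSL1, JUNB, MAFF, CYR61, IER5 and HBEGF fell, by 1.33-fold (HBEGF) to 2.12-fold (IER3). ARC, the activity-regulated cytoskeletal gene of neurons, rose 5.21-fold. The median log2 change was -0.18 over the 30 members and 0.02 over all accessions, and 24 of the 30 lay below 0, or 80.0%, against 45.9% of all accessions.

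In S211A+MDFIC cells 15 members fell with Dex and 1 rose, where 3.73% of all accessions fell, 6.26% rose and 9.99% changed in either direction. These 15 falls were 50.0% of the members tested. The log2 changes of the Dex comparisons with and without MDFIC share no array. Their tests share an estimate of each accession's spread, fitted over the arrays of all groups. Calls in both comparisons are therefore not independent. Of the falls, 9 were called in both, which is 90.0% of the members' falls in S211A cells and 60.0% of those with MDFIC. Over all accessions 280 falls were called in both, or 51.9% of the falls in S211A cells and 30.5% of those with MDFIC. MAFF was called in S211A cells only. EGR2, MYC, TRIB1, GADD45A, HES1 and ID1 were called in S211A+MDFIC cells only, and their difference between the comparisons is given with the MDFIC results. The rise of ARC was called in both. The median over the 30 was -0.25, against 0.05 over all accessions.

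**Figure D1:**
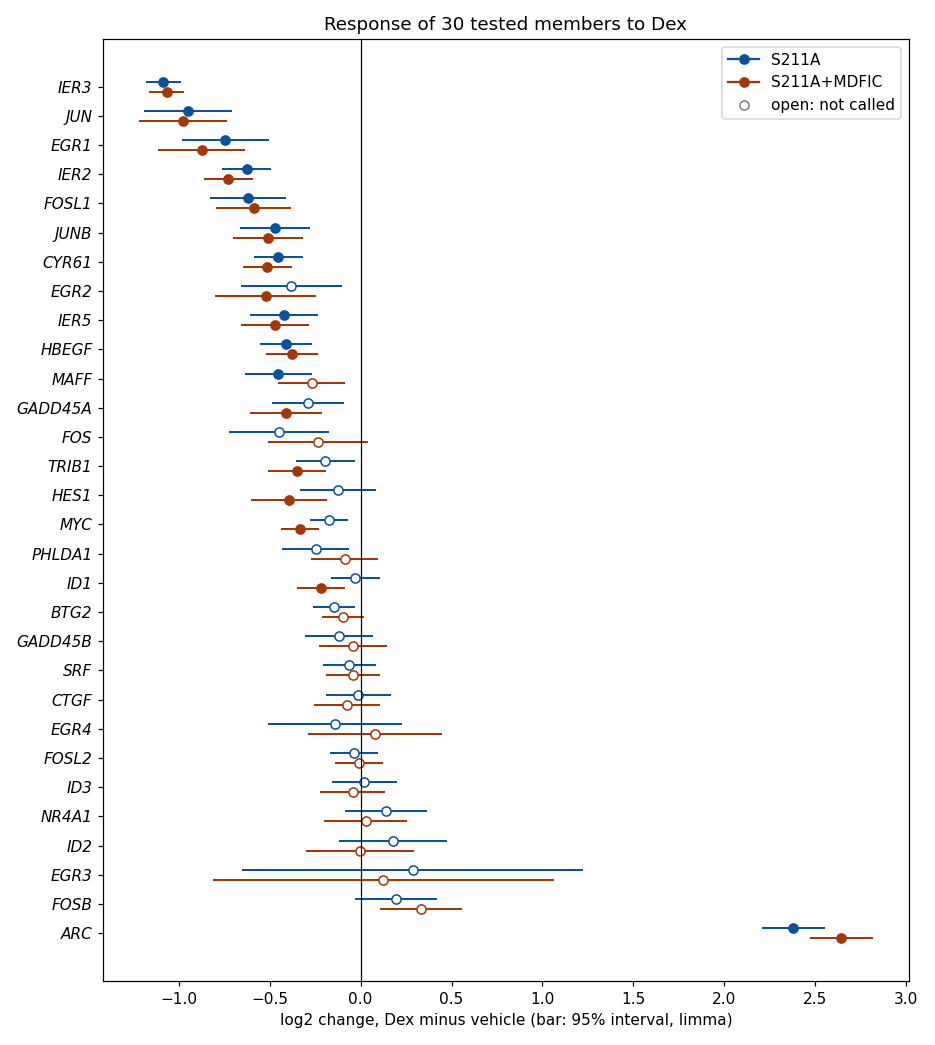
Log2 change with Dex (horizontal axis) of each of the 30 tested members in S211A cells (blue) and S211A+MDFIC cells (orange), with 95% intervals from limma and filled points where the adjusted p was under 0.05. IER3, JUN and EGR1 lie farthest to the left in both, ARC stands alone on the right, and the intervals of EGR3 are the widest.

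The members of AP-1 were led by JUN (NM_002228), the partner common to most AP-1 dimers. Its level was 4.39, 4.29 and 3.99 on the 3 S211A vehicle arrays and 3.33, 3.37 and 3.13 on the 3 S211A Dex arrays. With MDFIC it was 3.83, 3.99 and 3.84 under vehicle and 2.92, 2.97 and 2.84 under Dex. All Dex arrays thus lay below all vehicle arrays, also across the transfections. The fall was 1.93-fold in S211A cells (log2 -0.95, SE 0.11, limma adjusted p = 0.000511) and 1.97-fold with MDFIC (log2 -0.98, SE 0.11, limma adjusted p = 0.00039). JUN was printed as 10 spots of 1 probe, which were averaged.

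JUNB (NM_002229), a weaker activator that can replace JUN in AP-1, had a smaller fall. It stood at 1.75, 1.78 and 1.64 under vehicle and at 1.36, 1.17 and 1.23 under Dex in S211A cells, a log2 change of -0.47 (SE 0.08, limma adjusted p = 0.00893). With MDFIC JUNB stood at 1.74, 1.73 and 1.64 and at 1.11, 1.37 and 1.10, a change of -0.51 (SE 0.08, limma adjusted p = 0.00502). The groups did not overlap in either comparison. A dimmer second probe of JUNB gave -0.43 and -0.17, neither of which passed when each probe was tested on its own. Under normexp background correction the S211A change was -0.39 and the call ended (limma adjusted p = 0.0502).

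In the FOS family 1 of 4 members fell. FOSL1 (NM_005438), whose product is FRA-1, fell in both: from -1.86, -1.99 and -1.94 to -2.65, -2.41 and -2.58 in S211A cells, and from -2.03, -2.14 and -1.84 to -2.59, -2.66 and -2.51 in S211A+MDFIC cells. The log2 changes were -0.62 and -0.59 (SE 0.09 each, limma adjusted p = 0.00279 and 0.00332), and the groups did not overlap. Its second probe, also above background on all arrays, gave -0.56 and -0.13 with an SE of 0.25 and did not pass. With the probes averaged the change of FOSL1 was -0.59 in S211A cells (limma adjusted p = 0.0433) and -0.36 with MDFIC, where the call ended (limma adjusted p = 0.155).

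FOS itself (NM_005252), the founding member of the family, did not pass in either. Its levels were -1.79, -1.75 and -1.73 under vehicle and -2.27, -2.27 and -2.09 under Dex in S211A cells, where the groups did not overlap (log2 -0.45, SE 0.12, limma adjusted p = 0.0581). FOS in S211A+MDFIC cells was at -1.62, -1.97 and -1.77 and -1.76, -2.19 and -2.10, which overlapped (log2 -0.23, SE 0.12, limma adjusted p = 0.249). FOSL2 (NM_005253), which encodes FRA-2, stayed within 1.29 and 1.49 on the 12 arrays, with changes of -0.04 and -0.01 and 95% intervals from -0.16 to 0.09 and from -0.14 to 0.12. Those values are of its brightest probe. Its 2 other probes, also above background on all arrays, gave -0.03 and 0.17 (SE 0.10) and, for the dimmest, 0.40 and 0.37 (SE 0.14), and none of these passed (limma adjusted p = 0.138 to 0.909).

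FOSB (NM_006732) was dim and lay on the other side of 0. It stood at -4.29, -4.45 and -4.20 under vehicle and -4.05, -4.14 and -4.17 under Dex in S211A cells, and at -4.48, -4.59 and -4.40 and -4.10, -4.35 and -4.01 in S211A+MDFIC cells. The Dex arrays were higher than the vehicle arrays in both without overlap, but the changes of 0.19 and 0.33 did not pass (limma adjusted p = 0.317 and 0.0602). MAFF (NM_012323), a small basic zipper protein without its own activation domain, fell from 1.12, 1.08 and 1.08 to 0.58, 0.77 and 0.57 in S211A cells (log2 -0.45, SE 0.08, limma adjusted p = 0.00804). With MDFIC it went from 0.74, 0.84 and 0.85 to 0.62, 0.38 and 0.62, a change of -0.27 that did not pass (limma adjusted p = 0.0609). MAFF with MDFIC passed in 4 of 24 other settings (limma adjusted p in brackets). These were median centring (0.0107), only probes above background on all 12 arrays (0.0461), no S211A Dex replicate 2 (0.0481) and slide as a random block (0.0489). Of the 7 tested members of this AP-1 group, 4 fell in S211A cells and 3 with MDFIC, and 0 rose.

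**Figure D2:**
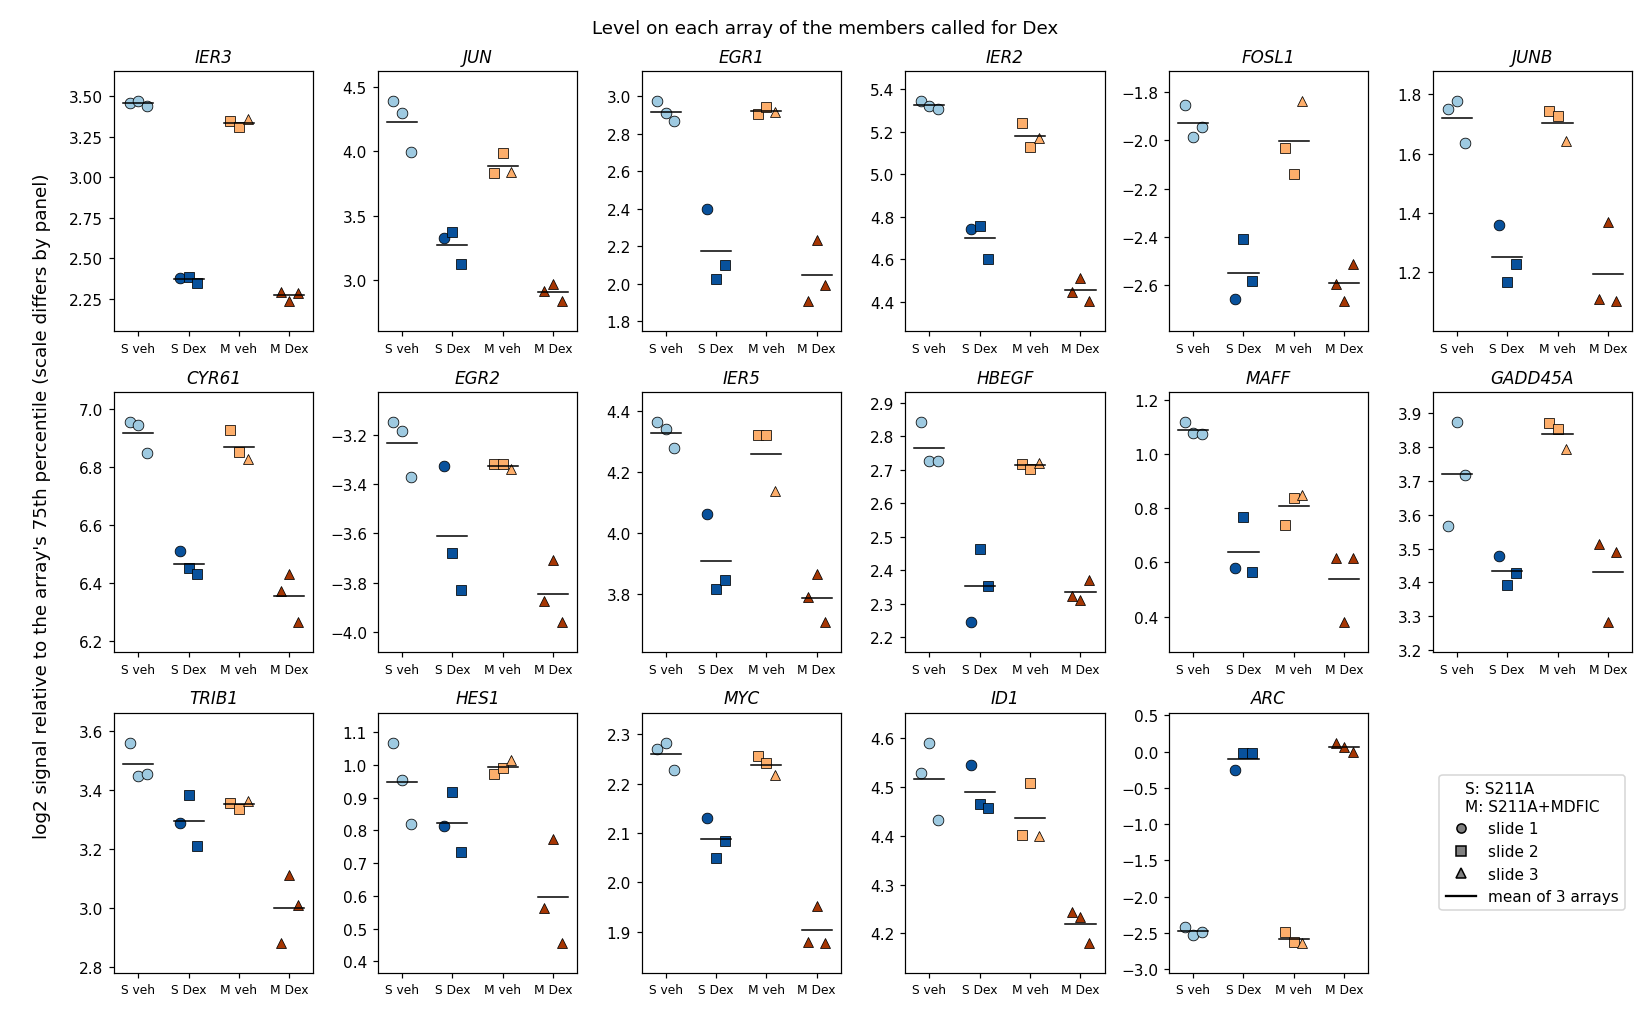
Level of the 17 members called for Dex in either cell population on each of the 12 arrays, as log2 signal relative to the array's 75th percentile (vertical axis, own scale in each panel), by group; marker shape gives the slide and the line the mean of 3 arrays. For IER3, JUN, IER2, EGR1, FOSL1, JUNB, CYR61, HBEGF, IER5, MYC and GADD45A every Dex array lies below every vehicle array, and for ARC every Dex array lies above.

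The EGR genes encode zinc finger factors that bind GC-rich promoters, and only EGR1 (NM_001964) fell in both. It measured 2.97, 2.91 and 2.87 under vehicle against 2.40, 2.03 and 2.10 under Dex in S211A cells, and 2.91, 2.94 and 2.91 against 1.91, 2.23 and 1.99 in S211A+MDFIC cells. The vehicle arrays agreed closely (SD 0.05 and 0.02, n = 3), while the Dex arrays were more spread (SD 0.20 and 0.17, n = 3). The falls were 1.67-fold (log2 -0.74, SE 0.10, limma adjusted p = 0.00234) and 1.83-fold (log2 -0.87, SE 0.10, limma adjusted p = 0.000764).

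EGR2 (NM_000399), a close relative of EGR1 that is known for its role in myelination, was dimmer. It read -3.15, -3.18 and -3.37 under vehicle and -3.33, -3.68 and -3.83 under Dex in S211A cells, with 1 Dex array inside the vehicle range (log2 -0.38, limma adjusted p = 0.11). It read -3.32, -3.32 and -3.34 and then -3.88, -3.71 and -3.96 with MDFIC, without overlap (log2 -0.52, SE 0.12, limma adjusted p = 0.0256). That call ended under normexp background correction (log2 -0.23, limma adjusted p = 0.124), and it ended without any single S211A+MDFIC array except Dex replicate 2 (limma adjusted p = 0.0657 to 0.099), and without S211A Dex replicate 1 the S211A change passed, at -0.52 (limma adjusted p = 0.0145). EGR4 (NM_001965) ranged from -5.05 to -4.14 and changed by -0.14 and 0.08, and neither passed (limma adjusted p = 0.685 and 0.791). EGR3 (NM_004430) was well above background on 1 of 3 S211A vehicle arrays, 2 of 3 S211A Dex arrays and every S211A+MDFIC array. It ranged from -6.25 to -4.57. Its replicates were spread, with an SD of 0.14 under vehicle and 0.79 under Dex in S211A cells. With MDFIC the SD was 0.37 under vehicle and 0.69 under Dex. Its 95% intervals, from -0.64 to 1.22 and from -0.81 to 1.06, hold changes of either sign. Changes within them cannot be told from 0 at this signal and spread.

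All 3 IER genes fell in both at their brightest probe, though a second probe of IER5 rose with MDFIC present. IER3 (NM_003897), a regulator of cell survival, had the largest fall among the members. Its level was 3.46, 3.47 and 3.44 under vehicle and 2.38, 2.39 and 2.35 under Dex in S211A cells, and 3.35, 3.31 and 3.36 and 2.30, 2.24 and 2.28 in S211A+MDFIC cells. Replicates lay within 0.06 of each other while the groups were about 1 log2 unit apart, a fall of 2.12-fold (log2 -1.09, SE 0.04, limma adjusted p = 5.86e-07) and 2.09-fold (log2 -1.07, SE 0.04, limma adjusted p = 4.83e-07). Ordered by fitted log2 change, IER3 held place 50 from the bottom in S211A and place 84 in S211A+MDFIC among the 24586 accessions.

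IER2 (NM_004907), a small nuclear protein, went from 5.35, 5.32 and 5.31 to 4.74, 4.76 and 4.60 in S211A cells (log2 -0.63, SE 0.06, limma adjusted p = 0.000145). With MDFIC it went from 5.24, 5.13 and 5.17 to 4.45, 4.51 and 4.40 (log2 -0.73, SE 0.06, limma adjusted p = 4.86e-05). Its second probe fell likewise, by 0.77 and 0.67 on the log2 scale. Dex and vehicle arrays were apart at both probes.

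IER5 (NM_016545), the third of these genes, depended on the probe. Its brighter probe fell from 4.37, 4.34 and 4.28 to 4.06, 3.82 and 3.85 in S211A cells (log2 -0.42, SE 0.08, limma adjusted p = 0.0132) and from 4.32, 4.32 and 4.14 to 3.79, 3.87 and 3.71 in S211A+MDFIC cells (log2 -0.47, SE 0.08, limma adjusted p = 0.0061). The S211A call ended without vehicle replicate 1 or Dex replicate 2 or 3 (log2 -0.40, -0.37 and -0.39, limma adjusted p = 0.0537 to 0.0626). The other probe of IER5 read 2.55, 2.23 and 2.53 under vehicle and 1.86, 2.10 and 1.97 under Dex in S211A cells, but 1.84, 1.76 and 2.13 and then 2.61, 2.47 and 2.38 in S211A+MDFIC cells. With every probe tested on its own this probe stood at -0.46 (limma adjusted p = 0.0564) and at 0.58 (limma adjusted p = 0.0167), so the probes moved in opposite directions with MDFIC present. Among the called members, 8 had another probe above background on all arrays in S211A+MDFIC cells, and 9 of these 10 other probes had the sign of the called one. In S211A cells it was 7 of 7, over 6 members.

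ARC (NM_015193), an early gene of synaptic activity, was the exception in direction. It was well above background on all 12 arrays, at -2.42, -2.53 and -2.48 under vehicle and -0.25, -0.02 and -0.02 under Dex in S211A cells. In S211A+MDFIC cells it was at -2.49, -2.63 and -2.64 under vehicle and 0.13, 0.06 and -0.01 under Dex. The Dex and vehicle arrays were more than 2 log2 units apart in both. The rise was 5.21-fold in S211A cells (95% interval 4.63 to 5.85, limma adjusted p = 2.19e-07) and 6.25-fold in S211A+MDFIC cells (95% interval 5.56 to 7.03, limma adjusted p = 1.33e-07). From the top of all accessions ARC held place 20 in S211A and place 9 in S211A+MDFIC. The second gene placed with it here, PHLDA1 (NM_007350), ranged from -1.86 to -1.43 and changed by -0.25 and -0.09, and neither passed.

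**Figure D3:**
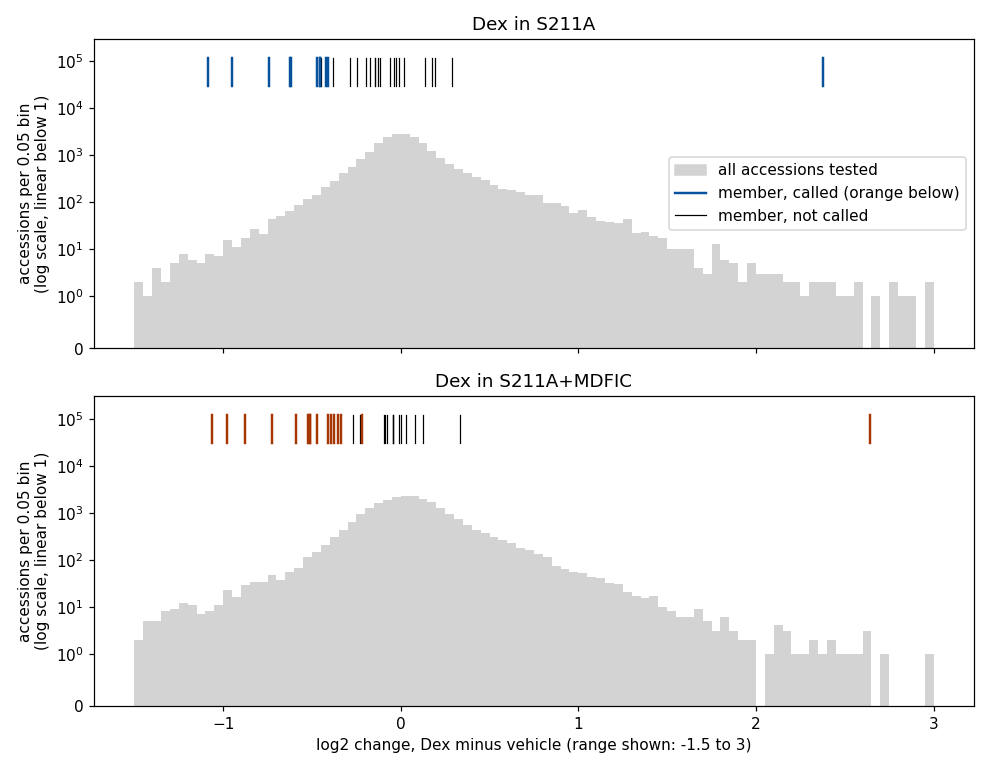
Distribution of the log2 change with Dex over all 24586 accessions tested (grey bars, number per 0.05 bin, log scale that is linear below 1, drawn from -1.5 to 3) with a line for each of the 30 members, coloured where called. The called falls lie in the left flank, between -1.09 and -0.41 in S211A cells and between -1.07 and -0.22 with MDFIC, and ARC lies far out on the right.

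Of the secreted and membrane-anchored products, CYR61 and HBEGF fell and CTGF did not. CYR61 (NM_001554), a matricellular protein now called CCN1, went from 6.96, 6.95 and 6.85 to 6.51, 6.45 and 6.43 in S211A cells (log2 -0.45, SE 0.06, limma adjusted p = 0.0014), and from 6.93, 6.85 and 6.83 to 6.37, 6.43 and 6.26 with MDFIC (log2 -0.51, SE 0.06, limma adjusted p = 0.000561). All 3 of its probes passed in both when tested on their own, at -0.52 to -0.45 in S211A cells and -0.56 to -0.35 with MDFIC. HBEGF (NM_001945), a membrane-anchored ligand of the EGF receptor, went from 2.84, 2.73 and 2.72 to 2.25, 2.46 and 2.35 in S211A cells (log2 -0.41, SE 0.06, limma adjusted p = 0.0033). With MDFIC it went from 2.72, 2.70 and 2.72 to 2.32, 2.31 and 2.37 (log2 -0.38, SE 0.06, limma adjusted p = 0.00462), and its second probe passed in both. CTGF (NM_001901), the close relative of CYR61, ranged from 3.02 to 3.28 over all arrays. Its changes of -0.01 and -0.08 had 95% intervals from -0.19 to 0.16 and from -0.25 to 0.10.

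MYC, TRIB1, GADD45A, HES1, EGR2 and ID1 fell with MDFIC present and lay below 0 without reaching the threshold in S211A cells. MYC (NM_002467), the growth regulator, stood at 2.27, 2.28 and 2.23 under vehicle and 2.13, 2.05 and 2.08 under Dex in S211A cells, without overlap (log2 -0.17, SE 0.04, limma adjusted p = 0.051). MYC in S211A+MDFIC cells stood at 2.26, 2.24 and 2.22 and at 1.88, 1.95 and 1.88 (log2 -0.34, SE 0.04, limma adjusted p = 0.00143). The Dex arrays lay below the vehicle arrays in both, within narrow replicate ranges. The S211A change of MYC passed in 4 of 24 other settings (limma adjusted p in brackets). These included quantile normalization (0.0372), only probes above background on all 12 arrays (0.0464) and slide as a random block (0.037). It also passed without S211A+MDFIC Dex replicate 2 (0.0376), which enters the S211A test only through the shared fit.

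TRIB1 (NM_025195), a pseudokinase that guides protein degradation, had levels of 3.56, 3.45 and 3.46 under vehicle and 3.29, 3.38 and 3.21 under Dex in S211A cells (log2 -0.19, limma adjusted p = 0.153). With MDFIC these were 3.36, 3.34 and 3.36 against 2.88, 3.11 and 3.01 (log2 -0.35, SE 0.07, limma adjusted p = 0.0123). Both TRIB1 probes passed there on their own. HES1 (NM_005524), a repressor downstream of Notch, changed by -0.13 in S211A cells, where the levels of 1.07, 0.95 and 0.82 and of 0.81, 0.92 and 0.73 overlapped. With MDFIC it fell from 0.97, 0.99 and 1.01 to 0.56, 0.77 and 0.46 (log2 -0.39, SE 0.09, limma adjusted p = 0.0248). Vehicle replicate 3 of the S211A cells lay among their Dex arrays. The other probes of HES1, also above background on all arrays, gave -0.26 and -0.28 in S211A cells and -0.27 and -0.34 with MDFIC. None of these passed when tested on its own (limma adjusted p = 0.0665 to 0.164). The fall of HES1 with MDFIC missed the threshold without any single S211A+MDFIC array except Dex replicate 2 (log2 -0.40 to -0.32, limma adjusted p = 0.0729 to 0.0916), and that of TRIB1 without vehicle replicate 1 (-0.35, 0.0508).

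Of the growth arrest genes, GADD45A (NM_001924) read 3.57, 3.88 and 3.72 and then 3.48, 3.39 and 3.43 in S211A cells (log2 -0.29, limma adjusted p = 0.088), and 3.87, 3.85 and 3.79 and then 3.52, 3.28 and 3.49 with MDFIC (log2 -0.41, SE 0.09, limma adjusted p = 0.0161). It binds the replication clamp PCNA and acts in growth arrest. Its call with MDFIC ended without vehicle replicate 1 or 2 (limma adjusted p = 0.0664 and 0.0615), and its S211A change passed without vehicle replicate 1 (-0.36, 0.0472). Its relative GADD45B (NM_015675) changed by -0.12 and -0.04, and BTG2 (NM_006763), an antiproliferative gene, by -0.15 and -0.10, and neither gene passed. ID1 (NM_002165), an inhibitor of basic helix-loop-helix factors, changed by -0.03 in S211A cells and fell by 0.22 on the log2 scale with MDFIC (SE 0.06, limma adjusted p = 0.0415), from 4.40, 4.51 and 4.40 to 4.24, 4.23 and 4.18. The call of ID1 was kept without S211A vehicle replicate 2 or 3, S211A Dex replicate 1 or S211A+MDFIC Dex replicate 2, and ended without any other single array (limma adjusted p = 0.0541 to 0.148). The related ID2 (NM_002166) and ID3 (NM_002167) changed by 0.18 and 0.02 in S211A cells and by less than 0.05 in size with MDFIC, and did not pass. A second probe of ID2, nearly as bright, gave 0.19 in S211A cells and 0.23 with MDFIC (SE 0.08 each). Neither passed on its own (limma adjusted p = 0.211 and 0.0892).

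The regulators SRF and NR4A1 did not pass in either comparison. SRF (NM_003131), which binds the serum response element in FOS, EGR1 and other early genes, ranged from 2.48 to 2.77. Its changes were -0.06 and -0.04, with 95% intervals from -0.20 to 0.08 and from -0.18 to 0.10. NR4A1 (NM_002135), an orphan nuclear receptor, ranged from -0.04 to 0.37 and changed by 0.14 and 0.03 (limma adjusted p = 0.494 and 0.891). The 95% intervals of NR4A1 ran from -0.08 to 0.36 and from -0.19 to 0.25. NR4A2, which was not tested, was well above background on S211A Dex replicate 2 and on S211A+MDFIC Dex replicates 1 and 2.

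Slides entered the Dex comparisons unequally. The vehicle arrays of S211A cells were all on slide 1, and 2 of the 3 Dex arrays on slide 2. When slide was added to the fit as a fixed block, the Dex estimate in S211A cells was the difference on slide 1 between 1 Dex array and 3 vehicle arrays, and in S211A+MDFIC cells it was the difference on slide 3 between 3 Dex arrays and 1 vehicle array. All called falls had groups that did not overlap, so their within-slide differences were negative by construction, and only their size and test add to the 6-array result. The within-slide median over the 30 members was -0.22 on slide 1 and -0.28 on slide 3, against -0.02 and 0.04 over all accessions.

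With the block 5 members fell in S211A cells, where 0.899% of all accessions did: FOSL1, JUN, IER2, IER3 and HBEGF. In S211A+MDFIC cells 6 fell, where 0.582% did: FOSL1, JUN, EGR1, IER2, IER3 and CYR61. ARC rose in both, at log2 2.22 and 2.70. The blocked changes were -0.90 and -0.93 for JUN, -1.08 and -1.08 for IER3, -0.58 and -0.72 for IER2 and -0.73 and -0.75 for FOSL1. EGR1 stood at -0.52 and -0.87 with the block, and its call ended in S211A cells (limma adjusted p = 0.0789). The other called falls did not pass with the block.

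**Figure D4:**
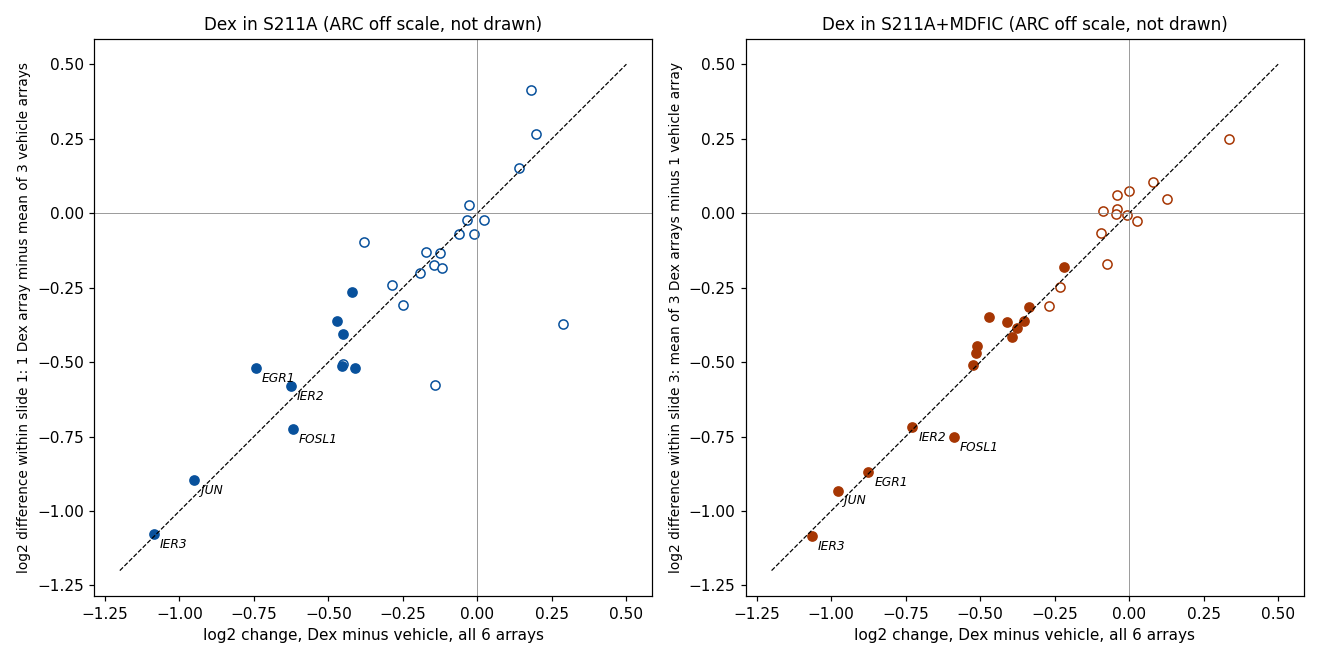
Log2 change with Dex from all 6 arrays of a comparison (horizontal axis) against the difference within 1 slide (vertical axis) for 29 members, ARC not drawn; filled points were called over the 6 arrays, the dashed line marks equal values, and called members below -0.55 are named. The sign of the called members is fixed by their choice. JUN, IER3 and IER2 lie close to the line in both panels, and EGR1 lies above it in S211A cells.

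Without regard to the test, 16 of the 30 members had all S211A Dex arrays below all S211A vehicle arrays, and 11.4% of all accessions did. In S211A+MDFIC cells it was 17, against 12.9% of all accessions, and 14 members were apart in this way in both, against 4.83% of all accessions. The reverse order was seen for ARC and FOSB in both, where 14.5% and 18.7% of all accessions showed it. At the brightest probe, falls of 1.5-fold or more were fitted for IER3, JUN, EGR1, IER2 and FOSL1 in both comparisons, and for 1.37% and 1.61% of all accessions. The second probe of FOSL1 gave a log2 change of only -0.13 with MDFIC.

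Under vehicle MDFIC changed 0 of the 30 members in limma, where 0.948% of all accessions changed, 0.423% higher and 0.525% lower. Under Dex it also changed 0, where 0.427% of all accessions changed, 0.264% higher and 0.163% lower. In the vehicle comparison 5 of the 30 members had an unadjusted limma p under 0.05, close to the 16.5% of all accessions in either direction. All 5 were lower with MDFIC, but the share lower at this threshold was not counted over all accessions. Of the 30 members 76.7% lay below 0, against 52.7% of all accessions. The 5 were MAFF (log2 -0.28, limma adjusted p = 0.127), JUN (-0.34, 0.159), IER3 (-0.12, 0.186), IER2 (-0.14, 0.254) and GADD45B (-0.19, 0.289). A second probe gave -0.25 for IER2 and 0.01 for GADD45B. In the Dex comparison 8 of the 30 had an unadjusted limma p under 0.05, against 13.5% of all accessions in either direction. Again all were lower with MDFIC, and 80.0% of the 30 lay below 0, against 48.1% of all accessions. ID1 (-0.27), IER2 (-0.25), TRIB1 (-0.29), MYC (-0.18) and JUN (-0.37) had limma adjusted p-values from 0.0959 to 0.204, and ID2, IER3 and HES1 of 0.335 or 0.336. Other tested probes gave 0.01 for ID2, where the brightest gave -0.32, and 0.16 and -0.17 for HES1. They gave -0.15 for IER2 and -0.24 for TRIB1. Without S211A+MDFIC Dex replicate 2, MYC (log2 -0.21, limma adjusted p = 0.0489) and TRIB1 (log2 -0.35, limma adjusted p = 0.0427) passed under Dex. No slide held both transfections under the same treatment, so that a difference between slides and one between these groups cannot be told apart without the assumptions of the block, with which 0 members passed in either comparison.

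The response to Dex was not shown to differ with MDFIC for any member. Tested as a contrast of the Dex changes, the difference passed for 0 of the 30 in limma, where it called 0.268% of all accessions, 0.26% higher and 0.00813% lower. In this test 3 of the 30 members had an unadjusted limma p under 0.05, close to the 9.85% of all accessions. These were MYC, with a difference of -0.16 (95% interval -0.30 to -0.02, limma adjusted p = 0.454), ARC with 0.27 (0.03 to 0.50, 0.473) and ID1 with -0.19 (-0.37 to -0.01, 0.493). Over the 9 members that fell in both, the difference at the brightest probe lay between -0.13 and 0.03. Its 95% intervals stayed within -0.46 and 0.32. For IER3 it was 0.02 (95% interval -0.11 to 0.15), for IER2 -0.10 (-0.28 to 0.08) and for JUN -0.03 (-0.36 to 0.31). The other probes of these members ranged more widely, from -0.04 (CYR61) to 1.04 (IER5, SE 0.17, limma adjusted p = 0.0584). Those of FOSL1 and JUNB gave 0.44 (SE 0.36) and 0.26 (SE 0.20), and none of the other probes passed. At the brightest probe the 6 members called with MDFIC only had differences of -0.27 to -0.12, with intervals that reached -0.56 and 0.24. The other tested probes of HES1 gave -0.02 and -0.06, and that of TRIB1 gave -0.34. MAFF, called without MDFIC only, had 0.18 (-0.07 to 0.44). These do not show that the responses were alike.

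**Figure D5:**
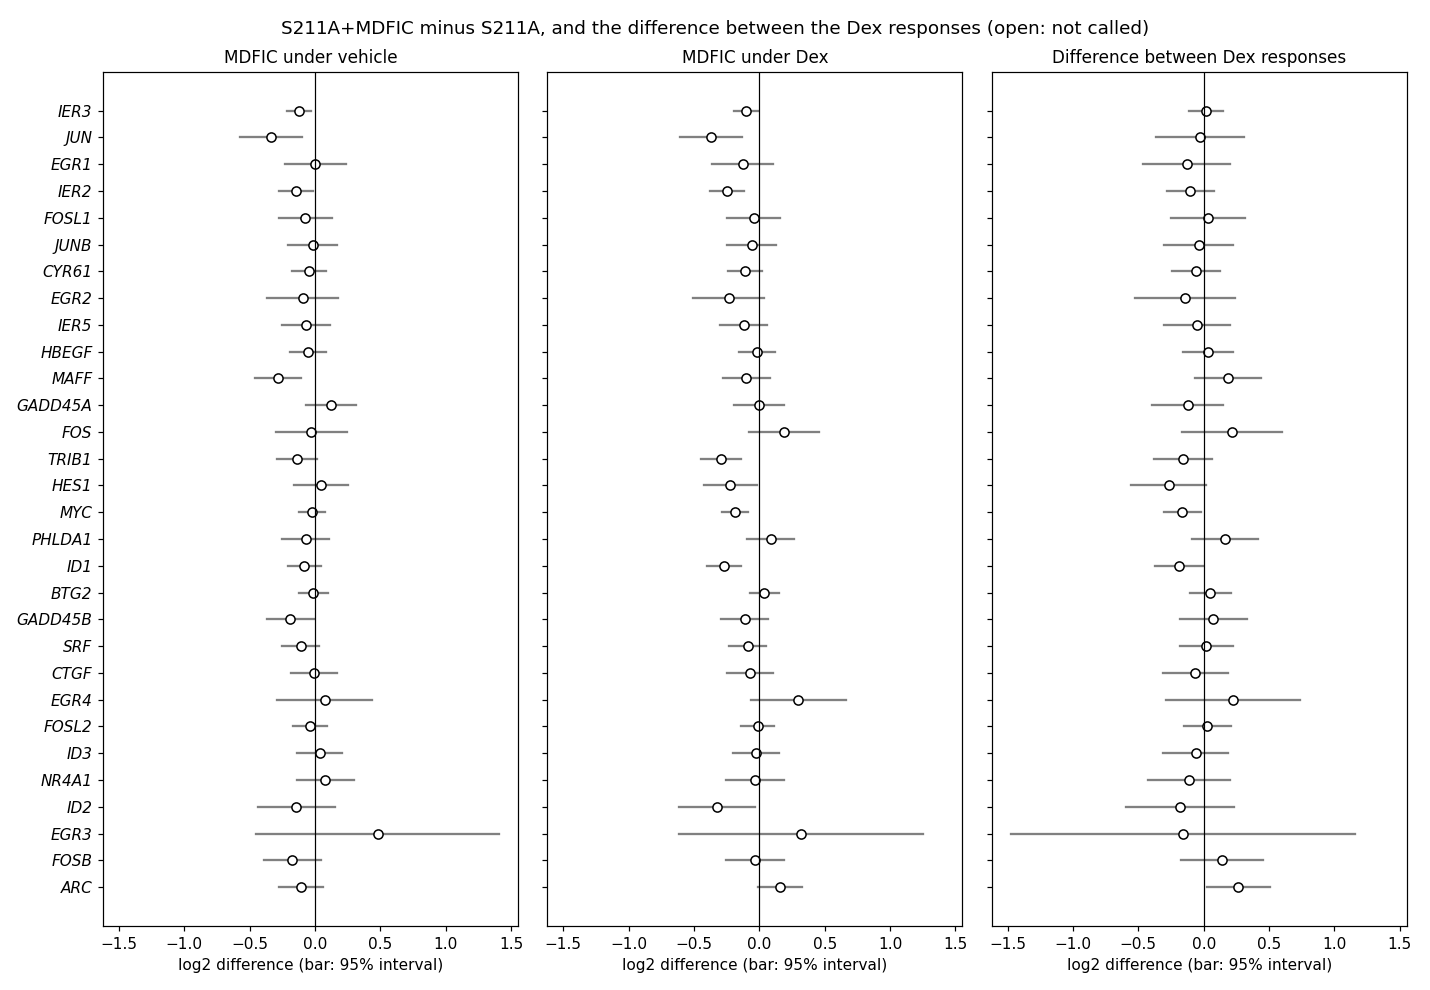
Log2 difference between S211A+MDFIC and S211A cells under vehicle (left) and under Dex (centre), and the difference between the Dex responses (right), for the 30 members with 95% intervals from limma; all points are open because 0 members were called. The intervals of EGR3 are the widest, up to 1.32 on either side in the right panel.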

How the data were processed

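Feature Extraction 12.0.0.7 reported each spot after background subtraction with spatial and multiplicative detrending, per the file headers. The authors deposited intensity per spot on a linear scale, and their series-wide table held the same values, unscaled. Here the processed signal was taken to log2 and the 75th percentile over each array's non-control spots was subtracted, 945 outlier spots were set to missing, and spots of 1 probe were averaged. A probe was tested where every array of 1 or more groups showed it well above background, and the brightest probe stood for its accession. Contrasts of 4 group means (groups from the titles) were fitted over 12 arrays, without a slide term, by limma 3.58.1 under R 4.3.3 (two-sided, Benjamini-Hochberg). The script was tested on simulated data. The number of arrays, 3 a group, limits the precision.

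The members, their grouping and the tests were chosen with earlier results of these data known. Symbols are those given with the list of accessions. Called members, the FOS, JUN and EGR families and NR4A1 are given in full. Further pathway genes, cell type markers, the transfected genes and probe sequences were not analysed here. Alternatives were other background corrections, scalings, filters, probe rules and blocks, and leaving out each array. Figures were drawn with matplotlib 3.10.9.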

Additional observations from a re-analysis of the deposited data

How the results depend on the processing

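The Dex counts of 11 members in S211A and 16 in S211A+MDFIC cells held within 1.5 times under normexp background correction, median centring, quantile normalization, both other filters, both other probe rules (testing each probe on its own was added after the data were seen), only the compared groups, and slide as a random block. Without scaling 6 passed in each, JUN, IER3, IER2, EGR1, FOSL1 and ARC. The random block was fitted with a correlation within slides of -0.07, so it took out no difference between slides. With slide as a fixed block 6 and 7 passed. Within slide 1, 1 passed (ARC), with 14 of the 30 at an unadjusted p under 0.05 against 13.2% of all accessions, and within slide 3 limma called 0, with 9 against 8.31%; each rests on a single array of 1 group, assumed to vary like the others. Leaving out single arrays gave 10 to 13 in S211A and 11 to 17 with MDFIC, 0 to 2 for MDFIC under Dex and 0 for MDFIC under vehicle and the difference between the Dex responses. The other settings also gave 0 for these 3 comparisons. Replicate numbers were not used as pairs. Same-numbered samples did not all deviate together (r of -0.26 to 0.25), which cannot show whether they were prepared together. The replicate block gave 11 and 17 members for Dex and 0 for the others. IER5 with MDFIC stood at 0.0535 with its probes averaged, the one change of sign among the called Dex changes, since its probes moved apart. With only the compared groups fitted, IER5 and HBEGF in S211A cells and ID1, HES1 and TRIB1 with MDFIC did not pass. ID1 passed in 10 of 24 settings, HES1 and EGR2 in 15 each, all with MDFIC. NR4A2 was too dim for a change to be read, and EGR3 was too dim in S211A cells and too spread between replicates with MDFIC.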
